A study of Homo sapiens with 9 samples.

Results

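The 46 genes described here carry cells through the G1/S transition and build the DNA replication machinery. They were taken as a list of gene names whose rule uses no measured value, though the list was drawn up with earlier results of these data known. All 46 were among the 15109 genes tested of 57797 gene symbols in the data. They comprised 3 cyclins of G1 and the G1/S transition, 4 E2F transcription factors, 10 origin licensing genes, 6 helicase activation genes, 6 primase and polymerase genes, 7 genes of the clamp, its loader and Okazaki fragment joining, 4 genes of deoxynucleotide supply, and 6 genes of histone supply, chromatin assembly, uracil repair and the fork checkpoint.

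The data were poly(A) RNA sequencing of MCF10A-YAP cells, in 3 libraries of cells with the sgRNA TRAM2-KO1, 3 with the sgRNA TRAM2-KO2 and 3 of controls with a non-targeting sgRNA. MCF10A is an immortalised, non-transformed human breast epithelial line, and the cells of all groups overexpressed a constitutively active form of YAP, the transcription coactivator held in check by the Hippo pathway. TRAM2 is a protein of the endoplasmic reticulum membrane that takes part in the entry of secreted proteins, and the comparison addresses what its loss does to the transcriptome of cells driven by YAP, whose proliferation the study set out to explain. In the paper's competition assays TRAM2 knockout inhibited the proliferation of such cells. How that relates to the RNA values below was not tested. The labels describe transduced cells kept after antibiotic selection, with no step of cloning, so that cells without an edit may be present. The paper reports that the TRAM2 guides gave a partial knockout, judged by DNA mutation and western blot. Within each group the libraries are lettered A to C, and values per library are given in that order. The series' design text names overexpression vectors in place of guides, and groups here follow the sample titles. That text speaks of biological replicates without saying how the cultures were kept apart, so p-values measure the spread between these libraries, which may in part be technical.

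In proliferating cells, cyclin D and cyclin E kinases phosphorylate the retinoblastoma protein in G1 and so free the activating E2F factors, which switch on the genes of the next phase. The origin recognition complex, CDC6 and CDT1 load the MCM2-7 ring onto DNA, CDC45 and the GINS complex turn that ring into the active helicase, and primase, the polymerases, the sliding clamp and the ligase then copy both strands. Many of these genes share E2F sites in their promoters, and E2F7 and E2F8 repress them again as S phase goes on. In breast epithelium as elsewhere, their messages mark cells that cycle.

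Depth ranged from 21.7 to 27.6 M estimated reads a library, of which 98.4% to 98.5% fell on annotated genes. TRAM2 had 219, 210 and 203 CPM (counts scaled to a library of common size) in TRAM2-KO1 libraries and 216, 212 and 210 CPM in TRAM2-KO2 libraries, against 481, 464 and 475 CPM in control libraries, which fits the labels. Its log2 fold change was -1.17 ± 0.03 (SE) for TRAM2-KO1 (edgeR adjusted p = 4.41e-08) and -1.16 ± 0.03 for TRAM2-KO2 (edgeR adjusted p = 4.19e-08). Of 9 basal breast epithelial markers 8 exceeded 1 CPM in every library and TP63 did not. The sum of the 9 was 4804 to 4943 CPM in TRAM2-KO1 libraries and 5740 to 5935 CPM in TRAM2-KO2 libraries, against 6124 to 6187 CPM in control libraries, and its part in the results below was not tested. Fibroblast markers summed to at most 3.49 CPM in any library, and CDKN2A, the gene of a G1 kinase inhibitor known to be deleted in MCF10A, had 0 reads in all 9.

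The promoters of the module were read from RefSeq windows (GRCh38.p14) that run from 250 bases before a gene's start to 50 bases after it, and 40 of the 46 genes were matched by symbol. CCND1, CCNE2, E2F8, GINS4, MCM4 and MCM5 were not matched. E2F letters, searched on both strands as TTTCCCGC, TTTCGCGC, TTTGCCGC or TTTGGCGC, stood in a window of 22 of the 40 genes (55%), and of 1090 of the 27305 genes in the whole RefSeq table (3.99%). CCAAT, the letters of the NF-Y box, stood on either strand in 24 of the 40 (60%) and in 39.7% of all genes. The letters TTTGAA or TTCGAA, the core of the element that mitotic genes carry, stood in 3 of the 40 (7.5%) and in 19.5% of all. CLSPN and MCM6 are shown, as members whose RNA fell in a comparison against control and that were matched in RefSeq. The windows of both hold E2F and CCAAT letters. Each runs from 160 bases before the start to 10 bases after it, with matches to the E2F and CCAAT letters of either strand in capitals. CLSPN is chr1:35769969-35770138 and MCM6 is chr2:135876434-135876603, both on the minus strand.
CLSPN: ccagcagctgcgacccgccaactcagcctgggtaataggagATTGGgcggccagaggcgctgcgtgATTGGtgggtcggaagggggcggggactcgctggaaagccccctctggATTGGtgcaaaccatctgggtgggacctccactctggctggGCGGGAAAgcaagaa
MCM6: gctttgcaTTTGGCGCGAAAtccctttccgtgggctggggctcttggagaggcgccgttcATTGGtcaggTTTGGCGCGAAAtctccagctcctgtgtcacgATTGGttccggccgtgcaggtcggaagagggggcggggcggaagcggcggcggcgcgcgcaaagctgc
The CLSPN stretch has 3 CCAAT boxes, all read on the opposite strand as ATTGG, and 1 E2F match that starts 5 bases before the gene's start. In MCM6 each of the 2 E2F blocks, which begin 152 and 90 bases before the start, holds a match on each strand, and the pair overlaps, with CCAAT boxes 100 and 58 bases before the start. A match is a description of the letters, not evidence that a factor binds there.

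All 46 genes were detected in these cells, at levels that differed widely. On the TPM scale, in which Salmon corrects for transcript length and depth so that genes can be compared, control means ran over the 46 genes in the order that the plot of levels shows. PCNA, the sliding clamp, had the highest control mean, 430 ± 6.9 TPM (SD, n = 3). RRM2 and TYMS, which supply deoxynucleotides, followed at 308 ± 10 and 252 ± 3.4 TPM, and CCND1, a D-type cyclin and a known target of YAP, at 212 ± 2.7 TPM. MCM4 was placed between PCNA and RRM2 at 403 TPM, but its control libraries spread over 346, 305 and 559 TPM, the last through a transcript model without a coding sequence that took 38.9% of MCM4 in that library and 0 in the other controls (MCM4-224). At the low end stood ORC1 at 9.29 ± 0.38 TPM, E2F8 at 7.15 ± 2 TPM and E2F2 at 2.96 ± 0.09 TPM. Of the 45 pairs of neighbours in this order, 18 had control libraries that did not overlap, so that most neighbours could not be ranked apart.

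**Figure D1:**
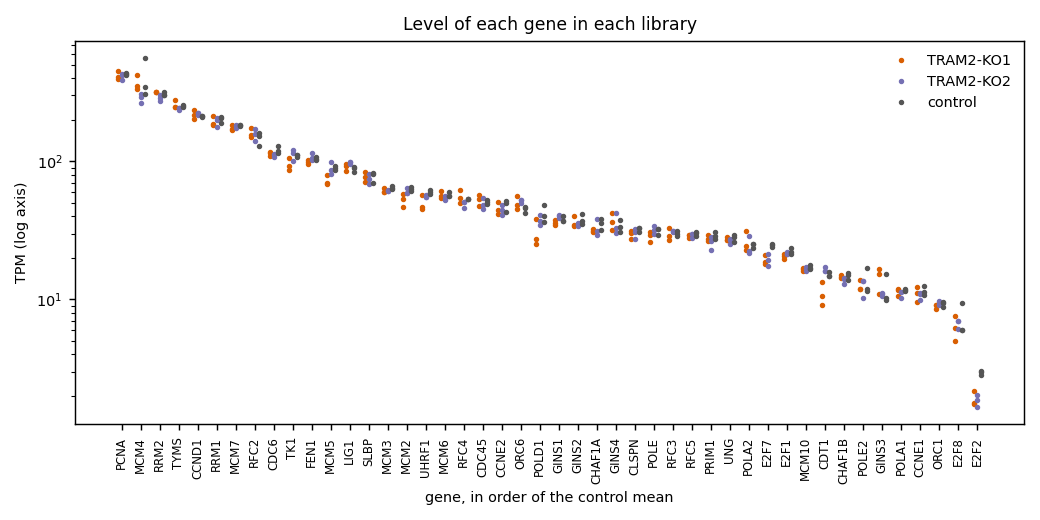
TPM on a log axis for each of the 46 genes in order of the control mean, 3 points per group (TRAM2-KO1, TRAM2-KO2, control). The levels run over a wide range, with PCNA at 430 TPM and E2F2 at 2.96 TPM in control.

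Summed over all transcript models of a gene, TPM differed between members of one complex, in part through how reads were divided among models. In the MCM2-7 ring, whose subunits are present once each, control means were 62.9 ± 1.9 TPM for MCM2, 64.2 ± 1.5 for MCM3, 89.7 ± 2.6 for MCM5, 57.4 ± 2 for MCM6 and 183 ± 1.3 for MCM7. Between 47.1% and 58.2% of MCM7 TPM in each library lay on a short retained-intron model, so its TPM depends on how reads were divided among models. In the GINS complex GINS1, GINS2 and GINS4 stood at 38.1 ± 1.9, 37.8 ± 3.4 and 34.1 ± 3.5 TPM and GINS3 at 11.9 ± 3.1 TPM. In the clamp loader RFC2 had 147 ± 16 TPM, RFC4 53.6 ± 0.22, RFC3 30 ± 1.1 and RFC5 30 ± 0.91. The larger subunit of the histone chaperone CAF-1, CHAF1A, had 35.2 ± 3.3 TPM and the middle one, CHAF1B, 14.8 ± 0.92.

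Cells with either guide expressed the replication genes at close to control levels, with small decreases in a few. "Fell" and "rose" are used below for an edgeR adjusted p under 0.05 over all 15109 genes at any size of change. With TRAM2-KO1 2 members fell (MCM5 and CLSPN), beside 2.20% of all genes that fell, and none rose, beside 0.761%. With TRAM2-KO2 4 members fell (CLSPN, CCNE2, E2F8 and MCM6), beside 2.50%, and none rose, beside 1.75%. In this edgeR fit no member was past a log2 fold change of 0.5 in either direction in any of the comparisons. With estimated transcript lengths in the fit E2F2 was past it, at -0.62 with TRAM2-KO1 and -0.69 with TRAM2-KO2 (edgeR adjusted p = 0.0492 and 0.0256). These comparisons share the control libraries, and in bulk RNA fewer cells in S phase and less RNA per cell cannot be told apart.

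The fitted changes leaned downwards in both. The median log2 fold change of the members was -0.03 for TRAM2-KO1, with 31 of 46 below 0, where the median over all genes was 0.01 and 48.6% were below 0. For TRAM2-KO2 it was -0.07, with 37 of 46 below 0, where the median over all genes was 0.00 and 51.2% were below 0. All 3 TRAM2-KO1 libraries lay below all 3 control libraries for 10 members, beside 11.1% of all genes, and above them for none, beside 11.9%. All 3 TRAM2-KO2 libraries lay below the controls for 19 members, beside 12.3%, and above them for 2, GINS1 and CCND1, beside 11.3%. Summed over the 46 genes, the libraries held 5498, 5458 and 5377 CPM with TRAM2-KO1 and 5428, 5421 and 5412 CPM with TRAM2-KO2, against 5623, 5662 and 5562 CPM with the control guide. Every library with a TRAM2 guide was below every control in this sum, which the most abundant genes weigh on most. Counted by gene, 34, 22 and 32 of the 46 were below the control mean in the TRAM2-KO1 libraries and 31, 35 and 38 in the TRAM2-KO2 libraries, against 19, 16 and 33 in the control libraries, so that by this count the groups overlapped. The median difference from the control mean was -0.04, 0.00 and -0.04 on the log2 scale in the TRAM2-KO1 libraries and -0.05, -0.09 and -0.08 in the TRAM2-KO2 libraries, against 0.00, 0.01 and -0.02 in the control libraries. At an unadjusted p under 0.05, 11 members were lower and 1 higher with TRAM2-KO1, and 15 were lower and 1 higher with TRAM2-KO2. Of all 15109 genes, 1521 were lower and 1291 higher at that limit with TRAM2-KO1, and 1235 and 1036 with TRAM2-KO2. DESeq2 gave 4 lower with TRAM2-KO1 (MCM5, CLSPN, CDT1 and UHRF1), 3 lower with TRAM2-KO2 (CLSPN, CCNE2 and MCM6) and none higher in either. Over all genes DESeq2 gave 472 lower and 176 higher with TRAM2-KO1, and 345 and 277 with TRAM2-KO2.

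**Figure D2:**
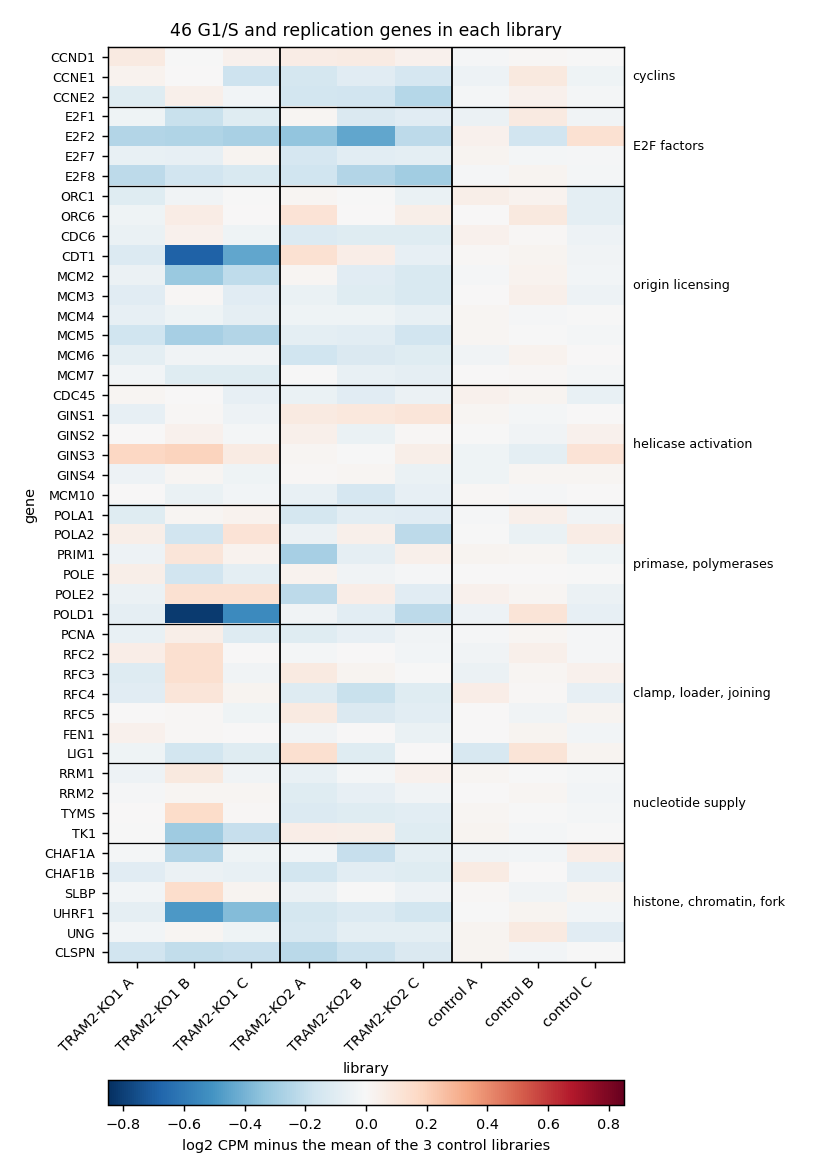
Difference of each library from the mean of the 3 control libraries in log2 CPM (colour), with the 46 genes in rows by role and the libraries of TRAM2-KO1, TRAM2-KO2 and control in columns. CLSPN, E2F8 and E2F2 are blue in all 6 libraries with a TRAM2 guide, and POLD1, CDT1 and UHRF1 are darkest in TRAM2-KO1 B and C.

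The precision allowed changes of moderate size to be bounded. The median SE of a member was 0.04 for either guide, and the 95% interval of the log2 fold change lay wholly within 0.5 of 0 for 44 of the 46 with TRAM2-KO1 and 45 with TRAM2-KO2. The exceptions were CDT1, whose interval for TRAM2-KO1 was -0.64 to -0.13, POLD1 at -0.76 to -0.12 for the same guide, and E2F2 at -0.54 to -0.13 for TRAM2-KO2.

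**Figure D3:**
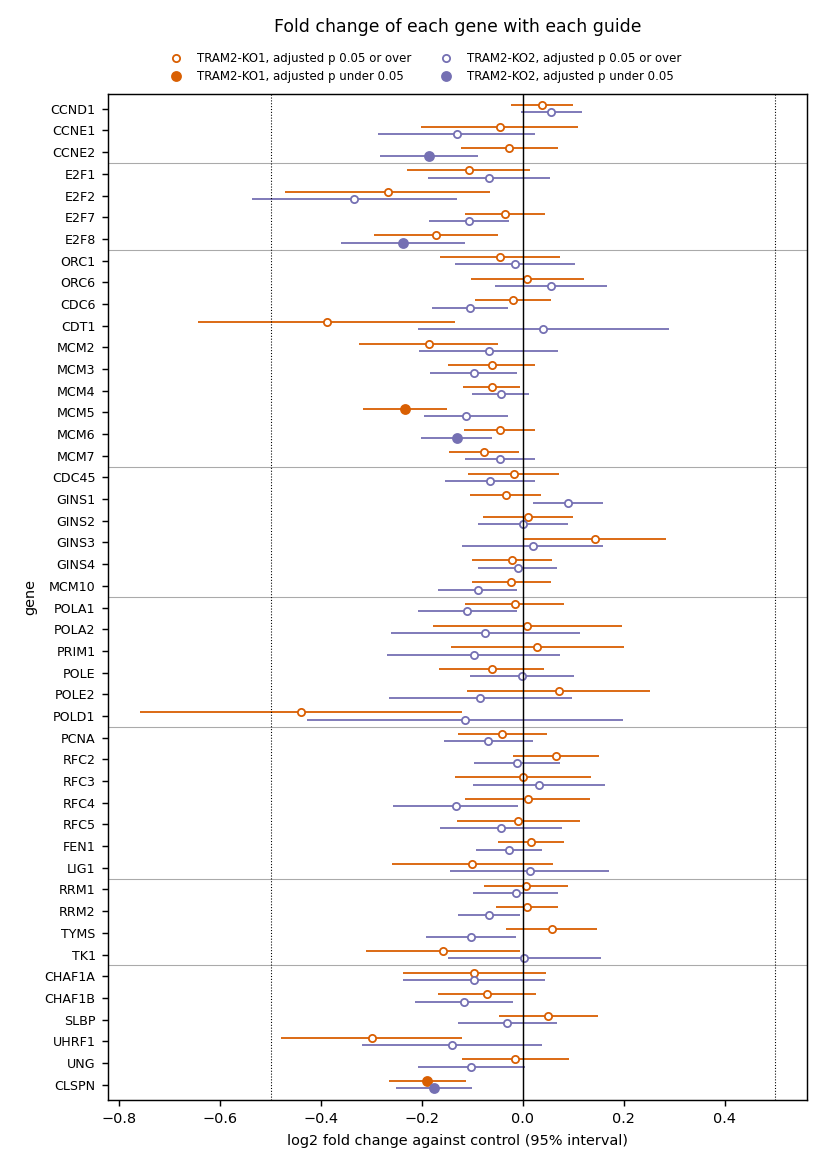
Log2 fold change of each gene against control with its 95% interval, TRAM2-KO1 above TRAM2-KO2 in each row, filled where the edgeR adjusted p is under 0.05. Filled points are CLSPN and MCM5 for TRAM2-KO1 and CCNE2, E2F8, MCM6 and CLSPN for TRAM2-KO2, none beyond the dotted lines at 0.5.

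CLSPN encodes claspin, the adaptor that travels with the fork and lets ATR activate the checkpoint kinase CHK1 when replication stalls (chr1:36185819-36235579, minus strand, GRCh37). It had 120, 116 and 117 CPM in TRAM2-KO1 libraries and 114, 118 and 123 CPM in TRAM2-KO2 libraries, against 137, 132 and 134 CPM in control libraries. No library with a TRAM2 guide reached the lowest control. Its log2 fold change was -0.19 ± 0.03 for TRAM2-KO1 (edgeR adjusted p = 0.0132), or 12.3% less, and -0.18 ± 0.03 for TRAM2-KO2 (edgeR adjusted p = 0.0161). For the mean of both guides against control it was -0.18 ± 0.03 (edgeR adjusted p = 0.00514). That last call was lost without control A (edgeR adjusted p = 0.0566) and where estimated transcript lengths entered the fit (log2 fold change -0.11, edgeR adjusted p = 0.64). The call for TRAM2-KO1 was lost without control A, control C or TRAM2-KO1 C (edgeR adjusted p = 0.0603 to 0.0811), and that for TRAM2-KO2 without any 1 of the controls, TRAM2-KO2 A or TRAM2-KO2 B (edgeR adjusted p = 0.0555 to 0.105). An unnamed gene overlaps CLSPN on the opposite strand, and as the strand setting of the quantification is not given, reads of the pair may not be told apart.

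Of the other members around the fork, CHAF1A and CHAF1B build nucleosomes behind it, SLBP binds the stem-loop of histone messages, UHRF1 carries DNA methylation over to the new strand and UNG removes uracil. None of them fell or rose. UHRF1 had 183, 137 and 149 CPM in TRAM2-KO1 libraries and 174, 178 and 173 CPM in TRAM2-KO2 libraries, against 192, 196 and 190 CPM in control libraries. All were below the controls, but TRAM2-KO1 A was far nearer to them than B and C, and the log2 fold changes of -0.30 ± 0.08 and -0.14 ± 0.08 did not pass (edgeR adjusted p = 0.0853 for TRAM2-KO1 and 0.486 for TRAM2-KO2). The UHRF1 decreases with TRAM2-KO1 and in the mean of both guides were called by DESeq2 and without the filter on low counts. That with TRAM2-KO2 was called by edgeR when only the groups compared were fitted. The other 4 ranged over log2 fold changes of -0.10 to 0.05 with TRAM2-KO1 and -0.12 to -0.03 with TRAM2-KO2.

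In origin licensing, 9 of the 10 members were below 0 with TRAM2-KO1 and 8 with TRAM2-KO2. MCM5, a subunit of the helicase ring (chr22:35796127-35821424, plus strand, GRCh37), had 97.2, 90.0 and 92.1 CPM in TRAM2-KO1 libraries and 103, 103 and 97.7 CPM in TRAM2-KO2 libraries, against 111, 109 and 108 CPM in control libraries. The groups did not overlap, with TRAM2-KO1 the lowest. The log2 fold change was -0.23 ± 0.04 for TRAM2-KO1 (edgeR adjusted p = 0.00683), -0.11 ± 0.04 for TRAM2-KO2 (edgeR adjusted p = 0.152) and -0.17 ± 0.03 for the mean of both (edgeR adjusted p = 0.0128). With TRAM2-KO1 as library A alone, which leaves out the 2 libraries of that group in which GC-rich genes were low, it was -0.18 (edgeR adjusted p = 0.131). The call in the mean of both was lost without control A, B or C (edgeR adjusted p = 0.0567 to 0.0882). The difference between the guides, TRAM2-KO2 minus TRAM2-KO1, was 0.12 ± 0.04 (edgeR adjusted p = 0.125).

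MCM6, another ring subunit (chr2:136597196-136634013, minus strand, GRCh37), had 128, 133 and 133 CPM in TRAM2-KO1 libraries and 121, 125 and 126 CPM in TRAM2-KO2 libraries, against 133, 138 and 136 CPM in control libraries. TRAM2-KO2 libraries lay below all others and TRAM2-KO1 libraries overlapped the controls. The log2 fold change was -0.13 ± 0.03 for TRAM2-KO2, 8.7% less (edgeR adjusted p = 0.0442), and -0.05 ± 0.03 for TRAM2-KO1 (edgeR adjusted p = 0.468). The TRAM2-KO2 call was lost without any 1 control or TRAM2-KO2 library and without TRAM2-KO1 C (edgeR adjusted p = 0.0677 to 0.197). The MCM6 call was also lost with the scaling of DESeq2 in edgeR, without the filter on low counts, and with transcript lengths in the fit (edgeR adjusted p = 0.534 for the last). MCM2, the subunit most used to mark licensed cells, had 110, 91.4 and 98.2 CPM in TRAM2-KO1 libraries and 115, 107 and 104 CPM in TRAM2-KO2 libraries, against 113, 117 and 112 CPM in control libraries. Its changes of -0.19 ± 0.06 and -0.07 ± 0.06 did not pass (edgeR adjusted p = 0.152 for TRAM2-KO1 and 0.715 for TRAM2-KO2).

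MCM3, MCM4 and MCM7 complete the ring, and their log2 fold changes lay between -0.08 and -0.06 with TRAM2-KO1 and between -0.10 and -0.04 with TRAM2-KO2. ORC1 and ORC6 of the origin recognition complex and the loader CDC6 ranged from -0.05 to 0.01 with TRAM2-KO1 and from -0.10 to 0.05 with TRAM2-KO2, none past the test. CDT1, which brings the ring to the origin, had 29.7, 19.9 and 23.7 CPM in TRAM2-KO1 libraries and 35.2, 33.4 and 30.7 CPM in TRAM2-KO2 libraries, against 32.4, 32.7 and 31.5 CPM in control libraries. Its decrease with TRAM2-KO1 sat in libraries B and C, and the change of -0.39 ± 0.11 did not pass (edgeR adjusted p = 0.111), while DESeq2 and the fit without a filter on low counts called it.

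Among the E2F factors all 4 were below 0 with both guides. E2F8, an atypical E2F that represses the G1/S programme (chr11:19245610-19263167, minus strand, GRCh37), had 15.5, 16.2 and 16.5 CPM in TRAM2-KO1 libraries and 16.1, 15.2 and 14.7 CPM in TRAM2-KO2 libraries, against 18.0, 18.4 and 17.9 CPM in control libraries. All 6 libraries with a guide were below the controls, from 350 to 449 reads per library over all 9. The log2 fold change was -0.24 ± 0.06 for TRAM2-KO2, 15.2% less (edgeR adjusted p = 0.0392), -0.17 ± 0.06 for TRAM2-KO1 (edgeR adjusted p = 0.143) and -0.21 ± 0.05 for the mean of both (edgeR adjusted p = 0.0413). DESeq2, the fit without a filter on low counts and the fit with transcript lengths did not make the E2F8 calls. The TRAM2-KO2 call was also lost without any 1 control, TRAM2-KO1 C, TRAM2-KO2 B or TRAM2-KO2 C (edgeR adjusted p = 0.0532 to 0.143) and the call in the mean without the same libraries or TRAM2-KO1 B (edgeR adjusted p = 0.0514 to 0.169). CSRP3-AS1 overlaps the gene on the opposite strand. E2F1, the activator most tied to S phase entry, had 48.2, 43.2 and 46.1 CPM in TRAM2-KO1 libraries and 49.9, 45.4 and 46.2 CPM in TRAM2-KO2 libraries, against 47.8, 52.1 and 48.4 CPM in control libraries. The groups overlapped, and the changes were -0.11 ± 0.05 for TRAM2-KO1 and -0.07 ± 0.05 for TRAM2-KO2 (edgeR adjusted p = 0.325 and 0.666).

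E2F2, also an activator, was the member with the most negative change in the mean of both guides, and also the least abundant. It had 8.03, 7.99 and 7.90 CPM in TRAM2-KO1 libraries and 7.58, 7.04 and 8.20 CPM in TRAM2-KO2 libraries, against 9.79, 8.53 and 10.5 CPM in control libraries. No library with a guide reached the lowest control, but the controls themselves were spread. The log2 fold change of -0.30 ± 0.08 in the mean of both did not pass (edgeR adjusted p = 0.0681). On the TPM scale E2F2 stood at 1.9 ± 0.23 in TRAM2-KO1 and 1.86 ± 0.19 in TRAM2-KO2, against 2.96 ± 0.09 in control (SD, n = 3 each), and with transcript lengths in the fit the change in the mean of both was -0.65 (edgeR adjusted p = 0.0137). A transcript model of E2F2 without a coding sequence, E2F2-202, took 0%, 0% and 20.8% of the gene's TPM in TRAM2-KO1 libraries and 0%, 20.7% and 0% in TRAM2-KO2 libraries, against 29.1%, 35.6% and 23.3% in control libraries. E2F7, the other atypical E2F, had a log2 fold change of -0.07 ± 0.03 in the mean of both (edgeR adjusted p = 0.313), and one of -0.35 with transcript lengths in the fit (edgeR adjusted p = 0.0361). The coding model E2F7-203 took 0% of its TPM in all TRAM2-KO1 libraries and 0%, 0% and 8.04% in TRAM2-KO2 libraries, against 10.9%, 21.1% and 15.2% in control libraries. Whether these short models were present in the cells was not tested.

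**Figure D4:**
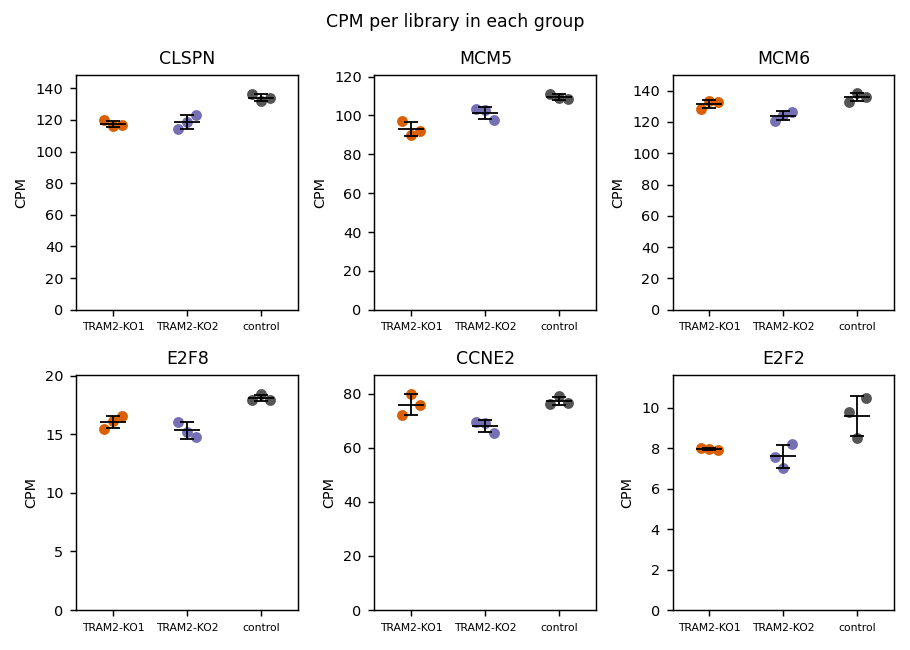
CPM per library (points) with the mean and SD (black) for the 5 genes that fell in a comparison and for E2F2, in TRAM2-KO1, TRAM2-KO2 and control, on axes that start at 0. CLSPN, MCM5, E2F8 and E2F2 lie below the controls with both guides, MCM6 and CCNE2 with TRAM2-KO2.

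Of the cyclins 1 of 3 fell, and that with TRAM2-KO2. CCNE2, a partner of CDK2 at the G1/S transition (chr8:95891998-95908906, minus strand, GRCh37), had 72.1, 79.8 and 76.0 CPM in TRAM2-KO1 libraries and 69.5, 69.1 and 65.4 CPM in TRAM2-KO2 libraries, against 76.4, 79.2 and 76.5 CPM in control libraries. TRAM2-KO2 libraries lay below all others. The log2 fold change was -0.19 ± 0.04 for TRAM2-KO2 (edgeR adjusted p = 0.039) and -0.03 ± 0.04 for TRAM2-KO1 (edgeR adjusted p = 0.78), and the difference between the guides of -0.16 ± 0.04 did not pass (edgeR adjusted p = 0.0901). The TRAM2-KO2 call was lost without any 1 control or TRAM2-KO2 library and without TRAM2-KO1 C (edgeR adjusted p = 0.0542 to 0.148). The CCNE2 call was also lost with transcript lengths in the fit (edgeR adjusted p = 0.771). INTS8 overlaps CCNE2 on the opposite strand.

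CCND1 had 625, 591 and 607 CPM in TRAM2-KO1 libraries and 619, 622 and 606 CPM in TRAM2-KO2 libraries, against 589, 595 and 591 CPM in control libraries. TRAM2-KO2 libraries were all above the controls, by little. Its log2 fold change was 0.04 ± 0.03 for TRAM2-KO1 (interval -0.02 to 0.10, edgeR adjusted p = 0.498) and 0.06 ± 0.03 for TRAM2-KO2 (edgeR adjusted p = 0.385). CCNE1, the other E-type cyclin, changed by -0.05 ± 0.07 and -0.13 ± 0.07 with TRAM2-KO1 and TRAM2-KO2 and did not pass in either.

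Helicase activation held none that passed. MCM10, which helps to open the double helix at the activated origin, had 58.0, 55.7 and 56.9 CPM in TRAM2-KO1 libraries and 55.4, 52.4 and 55.1 CPM in TRAM2-KO2 libraries, against 58.1, 57.3 and 58.0 CPM in control libraries. TRAM2-KO2 libraries were all below the controls, with a change of -0.09 ± 0.04 (edgeR adjusted p = 0.246). CDC45, GINS1, GINS2, GINS3 and GINS4 ranged from -0.03 to 0.14 with TRAM2-KO1 and from -0.07 to 0.09 with TRAM2-KO2. GINS1 had 93.6, 99.3 and 95.6 CPM in TRAM2-KO1 libraries and 104, 105 and 106 CPM in TRAM2-KO2 libraries, against 99.5, 97.4 and 98.5 CPM in control libraries, so that all TRAM2-KO2 libraries were above the controls. Its change of 0.09 ± 0.03 for TRAM2-KO2 did not pass (edgeR adjusted p = 0.183), but it passed with the GC trend removed (log2 fold change 0.10, edgeR adjusted p = 0.026). NINL overlaps GINS1 on the opposite strand.

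PCNA, which tethers the polymerases to DNA, had 404, 437 and 392 CPM in TRAM2-KO1 libraries and 393, 402 and 414 CPM in TRAM2-KO2 libraries, against 420, 428 and 419 CPM in control libraries. Only TRAM2-KO2 was clear of the controls, and the changes were -0.04 ± 0.04 for TRAM2-KO1 and -0.07 ± 0.04 for TRAM2-KO2 (edgeR adjusted p = 0.627 and 0.49). RFC2, RFC3, RFC4 and RFC5 of the clamp loader, the flap nuclease FEN1 and the ligase LIG1 ranged from -0.10 to 0.07 with TRAM2-KO1 and from -0.13 to 0.03 with TRAM2-KO2, none past the test.

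In the primase and polymerase group, POLA1, POLA2 and PRIM1 start each new strand, POLE and POLE2 belong to the leading strand polymerase and POLD1 is the catalytic subunit of the lagging strand polymerase. All 6 were below 0 with TRAM2-KO2, with a median of -0.09, and 3 of 6 with TRAM2-KO1. POLD1 had 61.1, 36.6 and 44.3 CPM in TRAM2-KO1 libraries and 63.0, 60.5 and 55.3 CPM in TRAM2-KO2 libraries, against 62.6, 69.6 and 61.4 CPM in control libraries. TRAM2-KO1 A stood just under the controls while B and C were far below, and the change of -0.44 ± 0.14 did not pass (edgeR adjusted p = 0.146), while it did without the filter on low counts (edgeR adjusted p = 0.0277).

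In deoxynucleotide supply RRM1, RRM2 and TYMS had log2 fold changes of 0.01, 0.01 and 0.06 with TRAM2-KO1. With TRAM2-KO2 the values were -0.01, -0.07 and -0.10, none past the test. The TYMS decrease with TRAM2-KO2 was called by edgeR when only the groups compared were fitted and when TRAM2-KO1 B was left out. TK1, the thymidine salvage kinase, had 113, 91.4 and 98.5 CPM in TRAM2-KO1 libraries and 117, 116 and 105 CPM in TRAM2-KO2 libraries, against 115, 111 and 112 CPM in control libraries. Again TRAM2-KO1 A was among the controls and B and C were not. Its change was -0.16 ± 0.07 for TRAM2-KO1 (edgeR adjusted p = 0.255).

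The split between TRAM2-KO1 A and the other libraries of its group followed GC content. The difference of the 46 genes from the control mean had a Spearman correlation with GC of the longest transcript of 0.16 in TRAM2-KO1 A, -0.64 in B and -0.54 in C, and of 0.31, 0.00 and -0.26 in the TRAM2-KO2 libraries. The points share a library and these are descriptions. Over all genes the correlation with GC was taken on the difference from the mean of all 9 libraries, which is another baseline. It was 0.18, -0.53 and -0.36 in the TRAM2-KO1 libraries and 0.40, 0.17 and -0.09 in the TRAM2-KO2 libraries. In control libraries it was 0.21, 0.25 and 0.14. These values are therefore not on the scale of those of the members, which were -0.12, 0.16 and -0.09 in the control libraries. The members had a median GC of 48.6%, against 47.6% over all genes tested, and POLD1, CDT1 and TK1 are the richest at 64.6%, 64.3% and 62.8%. With a trend on GC removed from each library, the changes for TRAM2-KO1 were -0.21 for POLD1, -0.17 for CDT1, -0.26 for UHRF1 and 0.04 for TK1, none past the test, and MCM5 (-0.16, edgeR adjusted p = 0.00392) and CLSPN (-0.23, edgeR adjusted p = 0.00212) still fell.

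**Figure D5:**
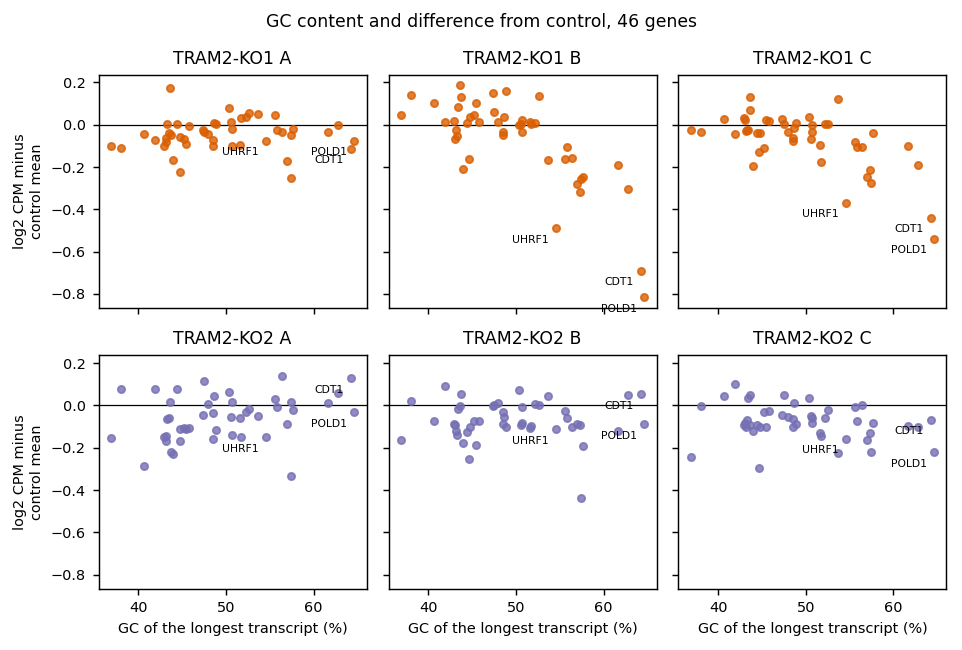
Difference of each of the 46 genes from the control mean in log2 CPM against the GC content of its longest transcript in percent, 1 panel per library with a TRAM2 guide. POLD1, CDT1 and UHRF1 lie far below 0 in TRAM2-KO1 B and C and near the other genes in the remaining panels.

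In the mean of both guides 3 members fell (CLSPN, MCM5 and E2F8), beside 2.53% of all genes, and none rose, beside 1.34%, with a median of -0.06 against 0.00 over all genes. At an unadjusted p under 0.05, 14 members were lower and none higher, and DESeq2 gave 3 lower (CLSPN, MCM5 and UHRF1) and none higher. Of all 15109 genes, 1195 were lower and 1056 higher at that limit, and DESeq2 gave 399 lower and 229 higher. All 6 libraries with a guide lay below all 3 controls for 6 members (CLSPN, E2F2, E2F8, MCM4, MCM5 and UHRF1), beside 4.72% of all genes, and above them for none, beside 4.43%. Between the guides, TRAM2-KO2 against TRAM2-KO1, edgeR found no member that fell, beside 0.867% of all genes, and none that rose, beside 1.42%. At an unadjusted p under 0.05, 6 members were lower and 5 higher in TRAM2-KO2, and DESeq2 gave 1 lower (TYMS) and 2 higher (CDT1 and GINS1). Of all 15109 genes, 1442 were lower and 1564 higher at that limit, and DESeq2 gave 190 lower and 394 higher. The 95% interval of this difference lay within 0.5 of 0 for 44 of 46 members, the exceptions being CDT1 (0.18 to 0.68) and POLD1 (0.01 to 0.64).

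These counts changed when libraries were left out, which also gives the test fewer libraries to work with. With TRAM2-KO1, 1 member fell in place of 2 when control A, control C or TRAM2-KO1 C was left out, 9 when TRAM2-KO1 A was, and none with TRAM2-KO1 as library A alone. With TRAM2-KO2, none of the 4 was called without control A, B or C or without TRAM2-KO2 B, and 1 without TRAM2-KO1 C, TRAM2-KO2 A or TRAM2-KO2 C. In the mean of both, none was called without control A, 1 without control C and 7 without TRAM2-KO1 A. Between the guides, 9 differed without TRAM2-KO1 A and 1 without TRAM2-KO1 B.

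The neighbouring pathways were mostly as level. Of 32 further genes of the replication complexes, 28 measured regulators of CDK, RB and E2F in G1, and 18 further nucleotide synthesis genes, edgeR found none that changed in any comparison, where 2 to 6, 4 to 9 and 1 to 3 genes of these lists had an unadjusted p under 0.05 in a comparison. Of all 15109 genes, 2251 to 3006 had such a p in a comparison. DESeq2 gave 1 regulator with either guide and 1 between the guides, and none in the other 2 lists. The median log2 fold changes were 0.00, 0.03 and 0.02 for the 3 lists with TRAM2-KO1 and -0.02, 0.00 and -0.01 with TRAM2-KO2. CCND2, CDKN1C, CDKN2A and CDKN2B of the regulators were too low to be tested.

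With TRAM2-KO2, 1 of 29 S phase checkpoint and recombination genes rose and 1 fell, beside the 1.75% and 2.50% of all genes given above, and among 14 histone chaperone and maintenance methylation genes the counts were also 1 and 1. Counts this small are near the share over all genes. WEE1, the kinase that holds CDK1 in check, rose by 0.21 ± 0.05 on the log2 scale (edgeR adjusted p = 0.0422), and EXO1, a resection nuclease, fell by 0.16 (edgeR adjusted p = 0.0422). Of the chaperone list PCLAF, a PCNA-binding protein, rose by 0.20 ± 0.05 (edgeR adjusted p = 0.04998) and CASP8AP2, needed for histone expression, fell by 0.16 (edgeR adjusted p = 0.0457) with the same guide. With TRAM2-KO1 and in the mean of both guides edgeR called none in either list, where 1 and 6 of the checkpoint genes and 4 and 3 of the chaperone genes had an unadjusted p under 0.05. Of all 15109 genes, 2812 and 2251 had such a p in these comparisons. DESeq2 gave 1 checkpoint gene and 1 chaperone gene with TRAM2-KO2, fewer than the 2 and 2 of edgeR, 1 and 1 with TRAM2-KO1, and 1 chaperone gene in the mean of both.

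A list of 28 mitotic genes was followed for reference. With TRAM2-KO1 3 rose, beside 0.761% of all genes, with TRAM2-KO2 10 rose, beside 1.75%, and in the mean of both 7 rose, beside 1.34%, and none fell in any of these. Their median log2 fold changes were 0.08, 0.14 and 0.11, against medians of -0.03, -0.07 and -0.06 for the 46 G1/S and replication genes. CCNB1, the mitotic cyclin, averaged 170 ± 9.36 CPM in TRAM2-KO1 and 187 ± 2.87 CPM in TRAM2-KO2, against 147 ± 0.785 CPM in control (SD, n = 3 each). Its log2 fold change in the mean of both was 0.28 ± 0.03 (edgeR adjusted p = 0.000723), beside 0.23 ± 0.03 for the spindle kinase AURKA (edgeR adjusted p = 0.00108). KIF20A, a kinesin of cytokinesis, rose by 0.18 ± 0.03 and TPX2, a spindle assembly factor, by 0.14 ± 0.03 (edgeR adjusted p = 0.0105 and 0.0112). The list was put together with earlier results of these data known, and no test compared it with the replication genes.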

How the data were processed

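Poly(A) RNA of 9 libraries was sequenced (3 groups of 3, grouped by the sample titles). Per the submitters' processing notes the authors used cutadapt and Salmon. Their versions and the transcript release and build behind the index were not given in the sources used here. The labels name a TruSeq RNA kit and the study's methods a stranded TruSeq kit. The deposited expected counts (estimated counts of reads per transcript) are not normalised, and the deposited TPM values are scaled by length and depth within a library. The deposited effective lengths, in nucleotides, served for the fit with transcript lengths.

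Estimated counts were summed per GENCODE gene symbol (release 44 lifted to GRCh37, 220336 of 226030 transcripts matched) and rounded. Coordinates on GRCh37 need not be those of the authors' build. Genes passing filterByExpr (minimum 10) entered 1 quasi-likelihood fit of all 9 libraries in edgeR 4.0.16 with TMM scaling and the group as only term. Tests were two-sided and Benjamini-Hochberg adjusted over 15109 genes, and intervals are at 95%. The common biological coefficient of variation was 5.81%. CPM were computed on TMM-scaled libraries, with 2 as the prior count on the log2 scale, except marker sums, whose CPM are of the unscaled library. DESeq2 1.42.0, which the study's methods name, was an alternative, as were other scaling, filters (none, or a mean of at least 5 CPM), transcript length offsets, a GC trend removed per library (lowess span 0.3), the letter as block, fewer groups and left-out libraries. The procedure was tested on simulated data. Depth was 21.7 to 27.6 M reads. Python 3.11.15 and matplotlib 3.10.9 made the tables and figures.

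The 46 members and the other lists were chosen with earlier results of these data known. Full statistics were given for members with an adjusted p under 0.05 in any comparison, for CCND1, E2F1, PCNA and MCM2, for 1 member of each role (that of smallest p for both guides averaged), and for up to 4 genes of each other list (by the same p, among those that changed against control). UHRF1, CDT1, E2F2, E2F7 and GINS1 were added after their values were seen. Promoters were printed for members that fell against control and were matched in RefSeq, none on chromosome 8.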

Additional observations from a re-analysis of the deposited data

How the results depend on the processing

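The counts of members that changed were 2 for TRAM2-KO1, 4 for TRAM2-KO2, 3 for the mean of both guides and 0 between the guides. For TRAM2-KO1 they were 4 by DESeq2, 5 without a filter on low counts, 1 with transcript length offsets and 0 with TRAM2-KO1 as library A alone, a setting chosen after seeing the data. For TRAM2-KO2 they were 2 without the filter, 1 with length offsets and 6 with TRAM2-KO1 as library A alone, with the GC trend removed or with only the groups compared. For the mean of both guides they were 5 with the GC trend removed. Between the guides, TRAM2-KO2 against TRAM2-KO1, they were 3 by DESeq2, 1 without the filter, 1 with a mean of at least 5 CPM and 2 with the GC trend removed. Leaving out 1 library in turn gave 1 to 9 for TRAM2-KO1, 0 to 5 for TRAM2-KO2, 0 to 7 for the mean of both and 0 to 9 between the guides. A replicate block by letter gave 2, 3, 2 and 0 for the 4 comparisons, and the block with the GC trend removed gave 2, 6, 5 and 2. The letters gave no sign of pairing: same-letter deviations correlated at -0.09 to 0.09 over 9 pairs, beside -0.15 to 0.12 over 18 pairs of unlike letters. Correlations over all genes cannot exclude that libraries of a letter were handled together. Only the groups compared could not be set for the mean of both, which uses all 3.

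Of the 9 decreases called against control, each stayed below 0 in all alternatives. For TRAM2-KO1 CLSPN was called in 14 and MCM5 in 17 of 19 alternatives. For TRAM2-KO2 CLSPN was called in 13, CCNE2 in 11, E2F8 in 9 and MCM6 in 9 of 19. For the mean of both guides CLSPN was called in 16, MCM5 in 14 and E2F8 in 6 of 18. Both E2F8 calls were among those lost under the replicate block. With length offsets none of the 9 was called. The cause of these differences was not tested.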

Other observations

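PCNA, whose reads per gene were close to control with both guides, was divided differently between its transcript models. PCNA-202 took 55.5%, 53.1% and 60.5% of the gene's TPM in TRAM2-KO1 libraries and 79.2%, 76.7% and 66.2% in TRAM2-KO2 libraries, against 74.3%, 66.5% and 66.6% in control libraries. The rest lay on PCNA-201, which is also protein coding. TRAM2-KO1 libraries did not overlap the others, and no test was run on these shares, which Salmon estimated from reads that the models have in common.

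The members whose RefSeq promoters hold the E2F letters did not stand apart in RNA. For TRAM2-KO2 the median log2 fold change was -0.07 over the 22 genes with the letters and -0.07 over the 18 without, and for TRAM2-KO1 it was -0.04 and -0.01. These are descriptions over few genes with overlapping ranges, and no test was run on them.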
